A study of Mus musculus with 10 samples.

Results

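The non-collagen matrix genes of the dental mesenchyme were examined in developing mouse molars cultured with or without insulin-like growth factor 1 (IGF1). The 10 genes were taken by symbol: Fn1, Tnc, Postn, Sparc, Fbln1, Vcan, Dcn, Bgn, Lum and Sdc1. All 10 were among the 18381 genes of the deposited table and among the 14504 that passed the filter on low counts and were tested. First lower molars of wild type C57BL/6JOlaHsd embryos at embryonic day 14 were kept in hanging drops for 6 h. From each of 5 embryos, numbered 1, 2, 3, 4 and 6, a molar received mouse recombinant IGF1 at 750 ng/ml, dissolved in PBS with BSA, and the molar of the other side received the same volume of PBS with BSA alone. Each tooth was handled on its own, which gave 5 IGF1 and 5 control libraries. Left and right sides are described as balanced between treatments, but the labels give no side and 5 pairs cannot be split evenly.

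The tooth germ at this stage is an epithelial bud or cap surrounded by condensing neural crest-derived mesenchyme. Adhesive glycoproteins such as fibronectin and tenascin C form the matrix on which these cells attach and condense, versican holds hyaluronan and water in that matrix, small leucine-rich proteoglycans bind collagen fibrils, and syndecan 1 links the cell surface to matrix and growth factors. IGF1 is a secreted growth factor that signals through a receptor tyrosine kinase to the PI3K and MAPK pathways. Whole teeth were sequenced, so a transcript cannot be placed in the epithelium or the mesenchyme, and fewer cells of a type cannot be told apart from less RNA per cell.

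Totals per library ran from 2845773 to 8763113 estimated counts. Both libraries of embryo 1 were the smallest, at no more than 3456634 counts, against at least 6670105 in the others. The members had 271 to 25522 counts in a library. All 13 markers of dental mesenchyme (Msx1, Pax9, Pdgfra and others) were tested, and they summed to 6540 to 8088 CPM in control teeth and 5704 to 7475 CPM in IGF1 teeth. CPM are counts for every 1000000 counts of a library, the total being scaled by edgeR's TMM factors. Across all genes, 1666 were called changed with edgeR's quasi-likelihood test, with embryo as a block, at a Benjamini-Hochberg adjusted p under 0.05. Of these, 975 were higher and 691 lower with IGF1. The median absolute log2 fold change of the called genes was 0.49.

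The promoters of 3 members are shown for the following reasons. Fbln1 was the member called changed, Bgn was the other member lower in every embryo, and Postn, an abundant member that was not called, has a TATA box close to its start. The sequences are from RefSeq (GRCm38.p6), run 5′ to 3′ on the strand of the gene, and span 250 bases before to 50 bases after the gene's start. The Fbln1 promoter lies on the plus strand at chr15:85205699-85205998, with capitals for matches to ACGTG, the core letters of the hypoxia response element, on either strand.
Fbln1: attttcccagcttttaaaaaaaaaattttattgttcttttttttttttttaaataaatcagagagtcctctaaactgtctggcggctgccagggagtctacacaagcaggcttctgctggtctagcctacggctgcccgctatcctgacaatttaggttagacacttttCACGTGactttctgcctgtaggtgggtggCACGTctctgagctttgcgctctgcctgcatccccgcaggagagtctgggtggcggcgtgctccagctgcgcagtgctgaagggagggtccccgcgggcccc
The Bgn promoter lies on the plus strand at chrX:73483351-73483650, with capitals for matches to the GC box letters GGGCGG on either strand.
Bgn: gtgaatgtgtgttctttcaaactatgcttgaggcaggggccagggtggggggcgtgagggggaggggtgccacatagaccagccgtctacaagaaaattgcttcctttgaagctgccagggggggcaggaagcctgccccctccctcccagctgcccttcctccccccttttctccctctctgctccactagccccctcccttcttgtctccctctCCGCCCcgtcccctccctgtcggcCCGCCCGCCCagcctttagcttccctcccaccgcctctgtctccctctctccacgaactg
The Postn promoter lies on the plus strand at chr3:54360857-54361156, with capitals for the TATA box letters TATAAA.
Postn: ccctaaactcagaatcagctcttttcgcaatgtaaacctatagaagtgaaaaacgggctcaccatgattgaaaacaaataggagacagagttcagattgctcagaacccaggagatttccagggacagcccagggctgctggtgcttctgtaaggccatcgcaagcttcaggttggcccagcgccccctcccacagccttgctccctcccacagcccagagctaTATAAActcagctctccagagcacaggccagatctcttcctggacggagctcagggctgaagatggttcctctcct

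Promoters were found for 7 of the 10 members, Fn1, Dcn and Lum being without an entry. Each was searched on both strands for 6 short motifs, and the same search was run on all 32851 promoters of the table. The TATA box, TATAAA, was in 2 of the 7 (Postn at 26 and Tnc at 126 bases before the start), against 13.6% of all promoters. The GC box, GGGCGG, was in 4 of the 7 (Tnc, Vcan, Bgn and Sdc1), against 35.7% of all promoters. The hypoxia core, ACGTG, was in Fbln1 alone, against 19.6% of all promoters. It matched at 81, 80 and 52 bases before the start, and the matches at 81 and 80 overlap because CACGTG reads the same on both strands. The AP-1 letters TGANTCA, the FoxO letters GTAAACA and the TEAD letters GGAATG were in 0 of the 7, against 7.81%, 3.65% and 14.7% of all promoters. For Sparc the RefSeq start lay 3103 bases inside the GENCODE gene, so its window lies away from the GENCODE start. A match describes letters in these windows and was not tested as a binding site.

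The matrix genes were among the well-expressed genes of the tooth. Levels were compared between genes as CPM per kb of merged exon length, since longer transcripts collect more reads. In control teeth, Vcan stood highest at 198 ± 18.5 CPM per kb (SD, n = 5), ahead of Postn at 192 ± 21.1 CPM per kb. They were followed by Sparc at 119 ± 13.9, Fn1 at 96.3 ± 11.4 and Tnc at 85.0 ± 13.4 CPM per kb. Next came Lum at 72.6 ± 10.9, Fbln1 at 71.2 ± 4.92 and Bgn at 56.7 ± 7.84 CPM per kb, and the lowest were Sdc1 at 37.5 ± 5.11 and Dcn at 19.9 ± 4.34 CPM per kb. The control ranges of neighbours in this order overlapped except between Postn and Sparc, between Bgn and Sdc1, and between Sdc1 and Dcn. The step from highest to lowest was 9.95-fold. Among 14437 tested genes with a length, the members lay between the 83.0 percentile for Dcn and the 99.0 percentile for Vcan by their level per kb over all libraries.

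**Figure D1:**
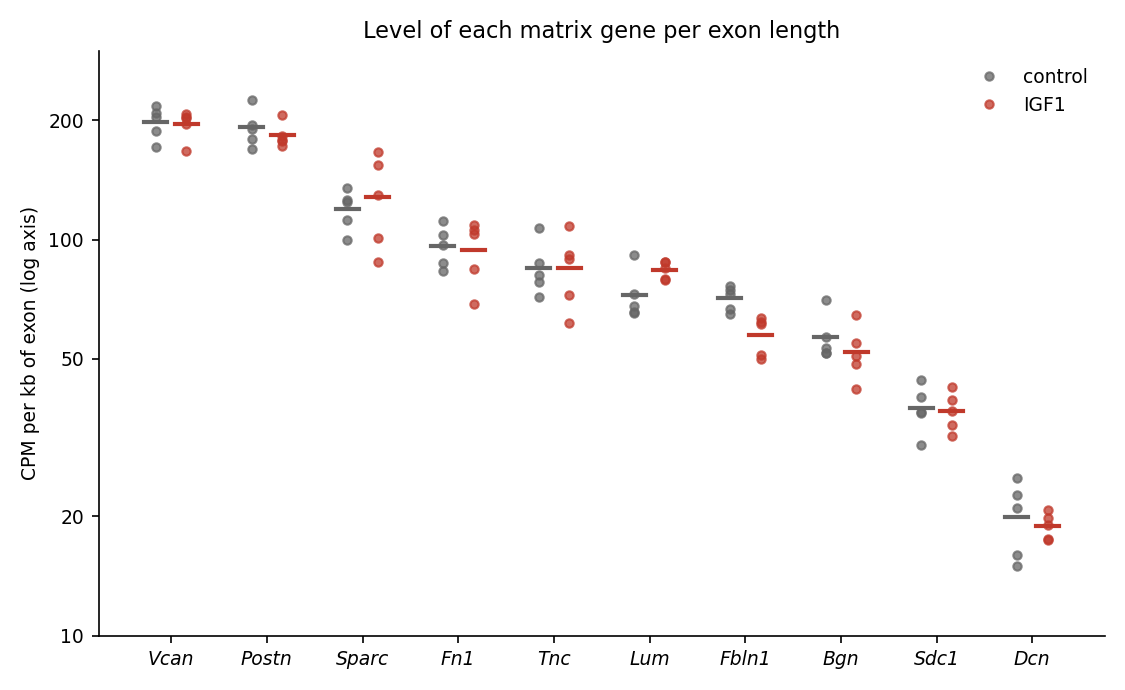
Level of each matrix gene in CPM per kb of exon (log axis), with a point for each tooth and a bar at the mean of control (grey) and IGF1 (red) teeth. Vcan and Postn lead at means of 198 and 192 CPM per kb in control teeth, Dcn is lowest at 19.9, and the colours separate without overlap for Fbln1 only.

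The calls among the members were set beside the shares of all genes called. With edgeR's quasi-likelihood test, 1 of the 10 members was called lower, which was Fbln1, against 4.76% of all genes tested, and 0 of 10 were called higher, against 6.72% of all genes. DESeq2's Wald test and limma-voom also called 1 lower and 0 higher, and at an unadjusted p under 0.05 edgeR's count was 1 in each direction, Fbln1 and Lum. Fbln1 and Bgn were lower in all 5 embryos, 2 of 10 members against 11.2% of all genes, and 0 members were higher in all 5, against 13.0% of all genes. The control and IGF1 teeth did not overlap for 1 member with IGF1 lower, again Fbln1, against 3.03% of all genes, and for 0 members with IGF1 higher, against 4.21%. The median log2 fold change was -0.03 over the members and -0.004 over all genes tested. Each count is near its background share for a list of 10 genes, so the counts are given as a description.

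The data bounded the changes of the members closely. The 95% intervals of all 10 fold changes lay within 1.5-fold in either direction, with limits between 0.718 and 1.33. The biological coefficient of variation was 8.69% to 13.0%. It is edgeR's estimate of the spread beyond counting error that remains after embryo and treatment are fitted, so it leaves out differences between embryos. Summed over the 10 members, control teeth held 7182 to 8218 CPM and IGF1 teeth 7288 to 8130 CPM, so the sums overlapped over most of their range.

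**Figure D2:**
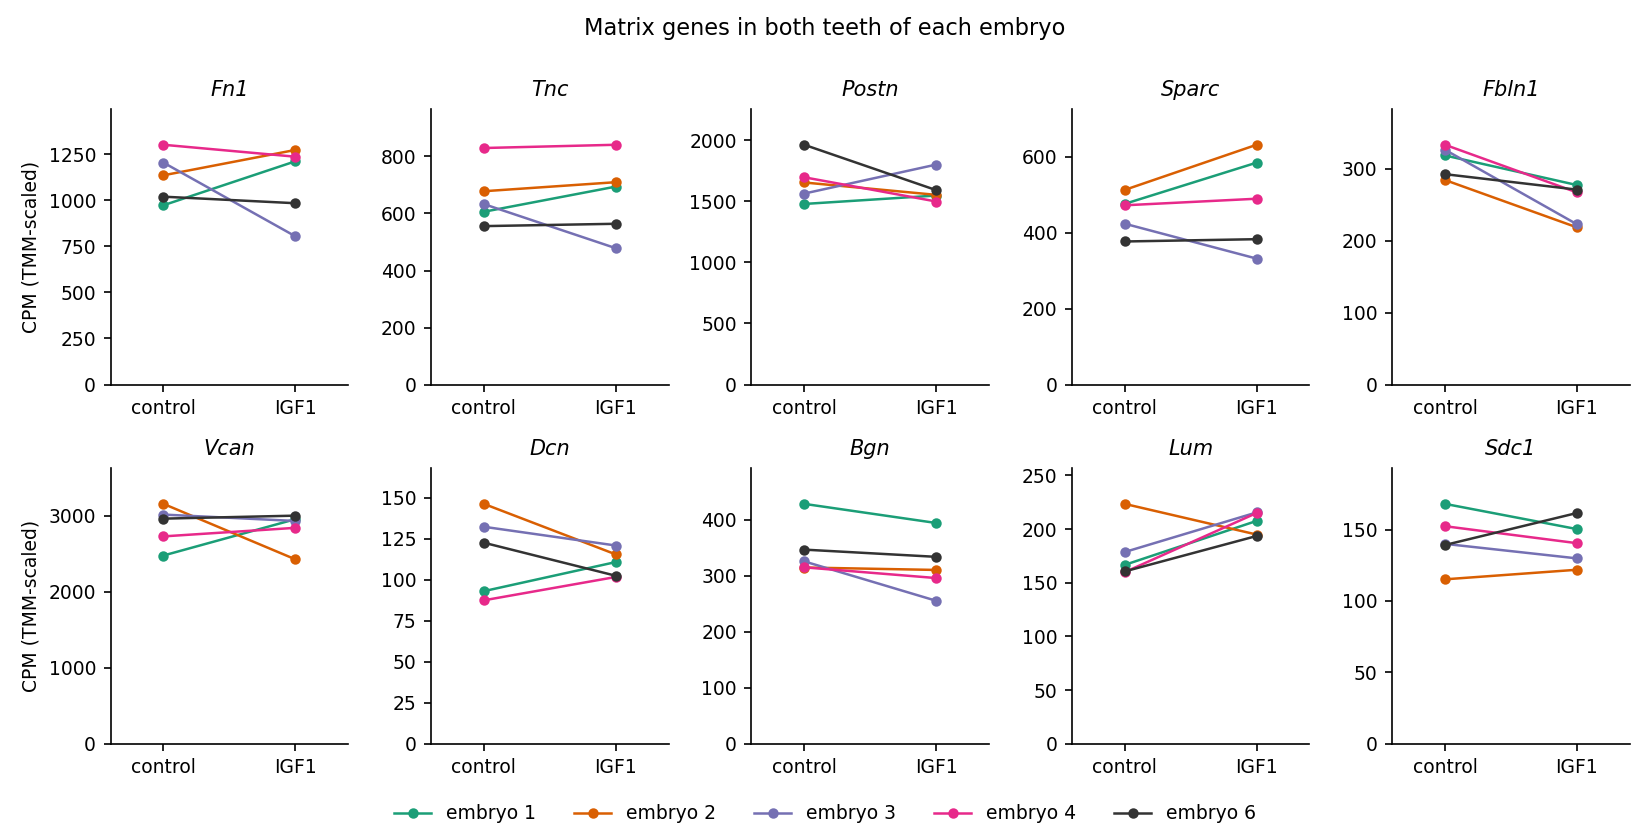
TMM-scaled CPM of each matrix gene in the control and IGF1 tooth of each embryo, with a line joining the teeth of an embryo and axes that start at 0. All 5 lines descend for Fbln1 and Bgn, and 4 of 5 ascend for Lum.

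Fn1 (ENSMUSG00000026193, chr1:71585520-71653200, minus strand) encodes fibronectin, the adhesive glycoprotein that cells assemble into fibrils through integrins. Its coordinates and those of the other members are from GENCODE M21 (GRCm38), where all 10 are protein coding. In embryos 1, 2, 3, 4 and 6, in that order throughout, Fn1 stood at 972, 1135, 1203, 1300.1 and 1019 CPM in control teeth and at 1211, 1272, 804, 1235 and 983 CPM in IGF1 teeth. The groups overlapped, and the IGF1 tooth of embryo 3 was the lowest of all 10. Its log2 fold change was -0.05 (95% interval -0.29 to 0.20, adjusted p = 0.843, from edgeR's quasi-likelihood test and adjusted by Benjamini-Hochberg over all genes, as for every adjusted p that follows).

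Tnc (ENSMUSG00000028364, chr4:63959785-64047015, minus strand) encodes tenascin C, a hexameric glycoprotein that loosens cell adhesion to fibronectin. It stood at 606, 678, 633, 829.6 and 556 CPM in control teeth and at 694, 709.8, 478, 841 and 564 CPM in IGF1 teeth. Embryo 4 was high and embryo 6 low in control, and embryo 3 was again the lowest IGF1 tooth. Tnc had a log2 fold change of -0.02 (95% interval -0.21 to 0.17, adjusted p = 0.912).

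Postn (ENSMUSG00000027750, chr3:54361109-54391037, plus strand) encodes periostin, a matricellular protein that binds integrins and collagen and is known from periosteum and periodontal ligament. Its levels were 1478, 1654, 1563, 1697 and 1963 CPM in control teeth and 1547, 1553, 1800.5, 1498 and 1591 CPM in IGF1 teeth. The groups overlapped, and embryo 3, low for Fn1 and Tnc with IGF1, gave the highest IGF1 value of Postn. Periostin's transcript had a log2 fold change of -0.06 (95% interval -0.24 to 0.12, adjusted p = 0.696).

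Sparc (ENSMUSG00000018593, chr11:55394500-55423183, minus strand) encodes osteonectin, a collagen-binding matricellular protein. It stood at 476, 513, 424, 472 and 377 CPM in control teeth and at 585, 632, 332, 489.8 and 383 CPM in IGF1 teeth. The IGF1 teeth of embryos 1 and 2 were the highest of all 10 and that of embryo 3 the lowest. Sparc had a log2 fold change of 0.06 (95% interval -0.14 to 0.27, adjusted p = 0.718).

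Fbln1 (ENSMUSG00000006369, chr15:85205949-85286535, plus strand) encodes fibulin 1, a calcium-binding glycoprotein of basement membranes and elastic fibres that also binds fibronectin and versican. Control teeth held 318, 284, 326, 333 and 292 CPM and IGF1 teeth 277, 218, 223, 267 and 271 CPM. Every IGF1 tooth lay below every control tooth. The mean was 311 ± 21.5 CPM in control and 251 ± 28.3 CPM in IGF1 teeth (SD, n = 5 in each). Within embryos the log2 ratio of IGF1 to control was -0.20, -0.38, -0.55, -0.32 and -0.11. Fbln1 thus fell in the IGF1 teeth, with a log2 fold change of -0.31 ± 0.07 (SE; 95% interval -0.48 to -0.15) or -19.5%, at an adjusted p of 0.0209 with edgeR's quasi-likelihood test.

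The call of Fbln1 was close to the threshold. It was lost without embryo 2 (log2 fold change -0.30, adjusted p = 0.0563), without embryo 4 (-0.31, adjusted p = 0.0754) and in the fit without the embryo block (-0.31, adjusted p = 0.0650). Over all alternatives its adjusted p ran from 0.00356 to 0.0754, and its direction held in each. Beside Fbln1, the summed mesenchymal markers were also lower in all 5 embryos, with log2 ratios of -0.09, -0.04, -0.36, -0.21 and -0.20. So were the sums of the endothelial markers (-0.14, -0.32, -0.51, -0.06 and -0.35), the red blood cell markers (-0.17, -0.17, -0.83, -0.60 and -0.48) and the macrophage markers (-0.02, -0.51, -0.25, -0.23 and -0.22). Abundant genes weigh most in such sums. In the mesenchymal list the 2 genes called lower were Vim (1412.5 to 1062.3 mean CPM) and Pdgfra (969 to 672). The median log2 ratio of its 13 markers was -0.007, -0.177, -0.275, -0.119 and -0.256. The part of these cell types in the fall of Fbln1 was not tested.

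**Figure D3:**
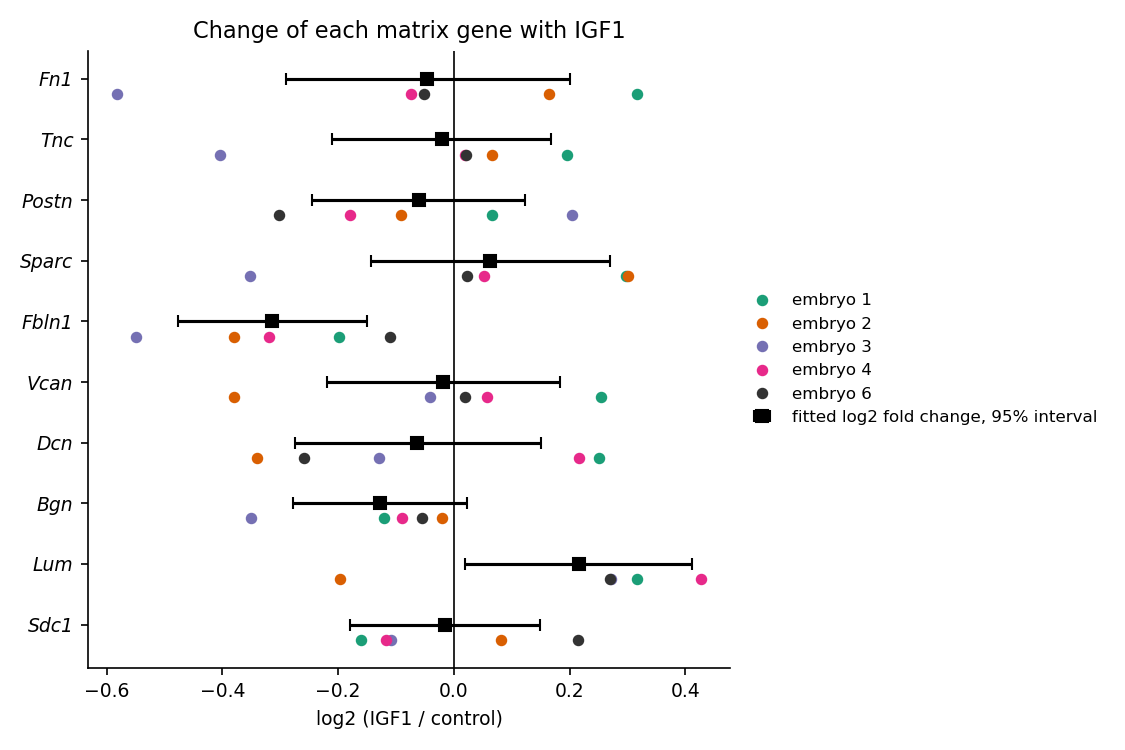
Fitted log2 fold change of each matrix gene (black squares, IGF1 against control) with its 95% interval, and the log2 ratio within each embryo (coloured points). The interval of Fbln1 runs from -0.48 to -0.15, that of Lum from 0.02 to 0.41, and the other 8 include 0.

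Vcan (ENSMUSG00000021614, chr13:89655312-89742509, minus strand) encodes versican, the large chondroitin sulfate proteoglycan that binds hyaluronan. It stood at 2475, 3154, 3013, 2726 and 2959.8 CPM in control teeth and at 2953, 2424, 2929, 2839 and 2999 CPM in IGF1 teeth. The groups overlapped, and the IGF1 tooth of embryo 2 stood below the other IGF1 teeth while its control tooth was the highest. For Vcan the log2 fold change was -0.02 (95% interval -0.22 to 0.18, adjusted p = 0.931), and without embryo 2 it was 0.07 (adjusted p = 0.622).

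Among the small leucine-rich proteoglycans, Bgn (ENSMUSG00000031375, chrX:73483602-73495933, plus strand) encodes biglycan, which carries chondroitin or dermatan sulfate chains and binds collagen. It stood at 428, 315, 326, 315 and 347 CPM in control teeth and at 394, 310.4, 255, 296 and 334 CPM in IGF1 teeth. Each IGF1 tooth was below the control tooth of its embryo, with log2 ratios of -0.12, -0.02, -0.35, -0.09 and -0.06, but the groups overlapped. Both teeth of embryo 1 were the highest of their group, and the IGF1 tooth of embryo 6 also lay above the control teeth of embryos 2, 3 and 4. The log2 fold change was -0.13 (95% interval -0.28 to 0.02, adjusted p = 0.270) and did not pass the threshold.

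Lum (ENSMUSG00000036446, chr10:97565128-97572703, plus strand) encodes lumican, a keratan sulfate proteoglycan that regulates fibril spacing. Control teeth held 167, 224, 179, 159.8 and 161 CPM and IGF1 teeth 208, 195, 216, 215 and 194 CPM. In 4 of 5 embryos the IGF1 tooth was above the control tooth, and in embryo 2, whose control tooth was the highest of all 10, it was below. The log2 fold change was 0.22 (95% interval 0.02 to 0.41, unadjusted p = 0.0333, adjusted p = 0.147, edgeR's quasi-likelihood test), which did not pass the threshold. Without embryo 2, the embryo with the opposite direction, it was 0.32 and passed, with an adjusted p of 0.0223. Without embryo 1, 3, 4 or 6 Lum was not called (adjusted p = 0.304, 0.237, 0.388 and 0.317).

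Dcn (ENSMUSG00000019929, chr10:97479609-97518143, plus strand) encodes decorin, which carries a single chondroitin or dermatan sulfate chain and binds collagen fibrils and TGF-beta. It stood at 93.1, 146, 132, 87.5 and 123 CPM in control teeth and at 111, 116, 121, 102 and 102 CPM in IGF1 teeth. The IGF1 teeth lay within the range of the control teeth. The log2 fold change was -0.06 (95% interval -0.28 to 0.15, adjusted p = 0.730), and the coefficient of variation between teeth was 21.8% in control and 7.52% in IGF1 teeth. The spread of Lum was likewise 15.0% in control and 5.16% in IGF1 teeth, and that of Postn, Vcan and Sdc1 was also smaller with IGF1. It was larger with IGF1 for Sparc (11.6% in control and 26.4% in IGF1 teeth), Fn1 (11.9% and 18.3%), Tnc (15.8% and 21.3%), Fbln1 (6.91% and 11.3%) and Bgn (13.8% and 16.2%). These differences in spread were not tested.

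Dcn and Lum are neighbours on chromosome 10, with 47.0 kb and 0 annotated genes between them. In the same cluster lie Kera, which encodes keratocan, and Epyc, which encodes epiphycan. Kera had 7 to 46 counts in a library and a log2 fold change of 0.43 (95% interval -0.60 to 1.46, adjusted p = 0.612). Epyc had 0 to 2 counts and was not tested. In embryos 1, 2, 3, 4 and 6 the ratio of Lum to Dcn CPM was 1.79, 1.53, 1.35, 1.83 and 1.31 in control teeth and 1.87, 1.69, 1.78, 2.11 and 1.89 in IGF1 teeth. The ratio was higher with IGF1 in 5 of 5 embryos, although neither gene was called. This pair was chosen after its values were seen, and 8 of the 45 pairs of members shifted one way in all embryos. Fbln1 was in several of these pairs, so they are not separate observations. The share among pairs of all genes was not determined, so the shift is given as a description only.

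Sdc1 (ENSMUSG00000020592, chr12:8771323-8793715, plus strand) encodes syndecan 1, a transmembrane heparan sulfate proteoglycan known in dental epithelium and in condensing dental mesenchyme. It stood at 168, 115, 140.0, 152 and 139 CPM in control teeth and at 150.3, 122, 129.8, 140.4 and 162 CPM in IGF1 teeth. The groups overlapped, with 2 embryos higher and 3 lower with IGF1. The log2 fold change was -0.02 (95% interval -0.18 to 0.15, adjusted p = 0.923).

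The members did not move alike across embryos. In embryo 3, 8 of the 10 members were lower in the IGF1 tooth, with a median log2 ratio of -0.24, while in embryo 1, 7 of the 10 were higher, with a median of 0.22. In embryos 2, 4 and 6 the medians were -0.06, -0.03 and -0.02. These ratios are relative to the bulk of genes, which the TMM scaling centres near 0 in each embryo. Fn1, Tnc and Sparc had their lowest ratios in embryo 3, at -0.58, -0.40 and -0.35, and Fbln1 and Bgn likewise, at -0.55 and -0.35. Without embryo 3 the log2 fold changes of Fn1, Tnc and Sparc were 0.08, 0.07 and 0.16, with adjusted p of 0.562, 0.547 and 0.187.

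The summed markers of bone-forming cells also had their lowest log2 ratio in embryo 3. Of 8 markers 6 were tested, and Bglap and Bglap2, which encode osteocalcin, were at 0 in some libraries. Their sum ran from 164 to 977 CPM in control teeth and from 130.3 to 1308 CPM in IGF1 teeth, and its log2 ratios were 0.12, 0.42, -1.50, 0.23 and -0.33. Embryo 3 was the lowest for the bone marker sum as for Fn1, Tnc, Sparc, Fbln1 and Bgn. Postn, known from periosteum, went the other way, with its highest log2 ratio in embryo 3, at 0.20. Spp1, which encodes osteopontin, ran from 49.1 to 449 CPM in control teeth and from 37.5 to 341 CPM in IGF1 teeth. Its log2 fold change was -0.46 (adjusted p = 0.326), and ran from -0.69 to -0.069 when each embryo was left out in turn. Alpl, the alkaline phosphatase of mineralising cells, had a log2 fold change of -0.16 (adjusted p = 0.617). None of the 6 was called by edgeR, DESeq2 or limma-voom, and 0 had an unadjusted p under 0.05. The log2 ratio of the sum was also lowest in embryo 3 for the markers of skeletal muscle, at -1.57, of red blood cells, at -0.83, of endothelium, at -0.51, of mesenchyme, at -0.36, and of cartilage, at -0.05. The epithelial sum was highest there, with log2 ratios of 0.02, 0.22, 0.42, -0.13 and 0.29 over the embryos. The muscle sum was low, at 8.78 to 24.5 CPM in control and 7.46 to 49.0 CPM in IGF1 teeth. The part of bone-forming cells or of these cell types in the values of embryo 3 was not tested.

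**Figure D4:**
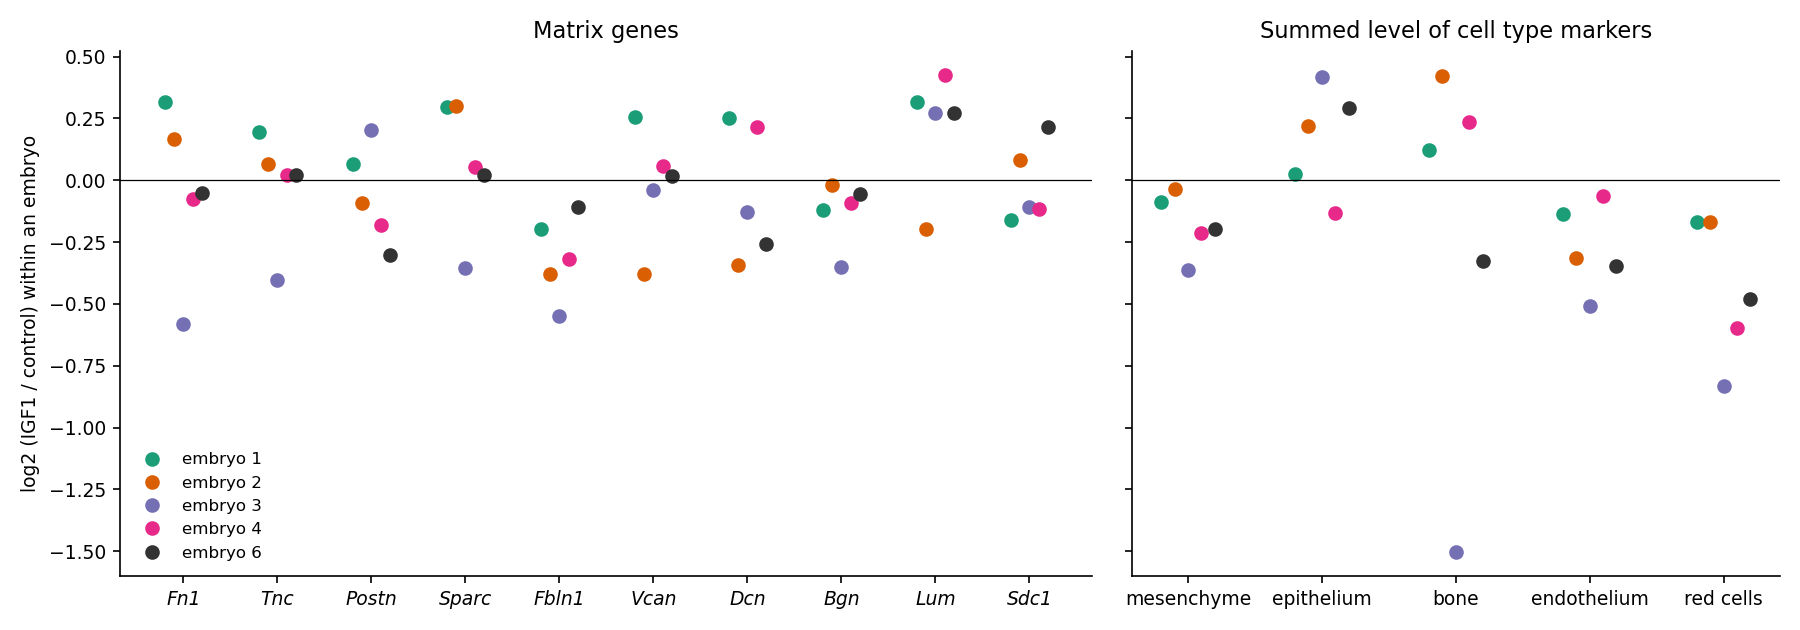
Log2 ratio of the IGF1 to the control tooth within each embryo, for each matrix gene (left) and for the summed CPM of marker lists (right). Embryo 3 is lowest for Fn1, Tnc and Sparc at -0.58, -0.40 and -0.35 and for the bone markers at -1.50. It is highest for Postn at 0.20.

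The other genes of the matrix were given by lists, each described by its calls beside the 6.72% of all genes called higher and the 4.76% called lower. Of 36 other matrix glycoproteins tested, 1 was called higher and 3 lower, with a median log2 fold change of -0.07. Thbs1, which encodes thrombospondin 1, fell from 192 ± 20.4 to 88.6 ± 20.2 CPM (SD, n = 5), by 1.14 on the log2 scale (adjusted p = 0.000153, edgeR's quasi-likelihood test), with no overlap between groups. Smoc1, a calcium-binding relative of Sparc, fell by 0.52 (adjusted p = 0.0255) and Emilin2, an elastic fibre glycoprotein, fell by 0.40 (adjusted p = 0.0203). Vwa1, a cartilage and basement membrane protein, rose by 0.70 (adjusted p = 0.0349) from 5.56 to 8.68 CPM. The call of Thbs1 held without any single embryo. That of Smoc1 was lost without embryo 2, 3 or 6 (adjusted p = 0.0743, 0.0724 and 0.0749), that of Emilin2 without embryo 2 or 4 (adjusted p = 0.0591 and 0.0856), and that of Vwa1 without any one embryo, with adjusted p from 0.0508 to 0.108.

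**Figure D5:**
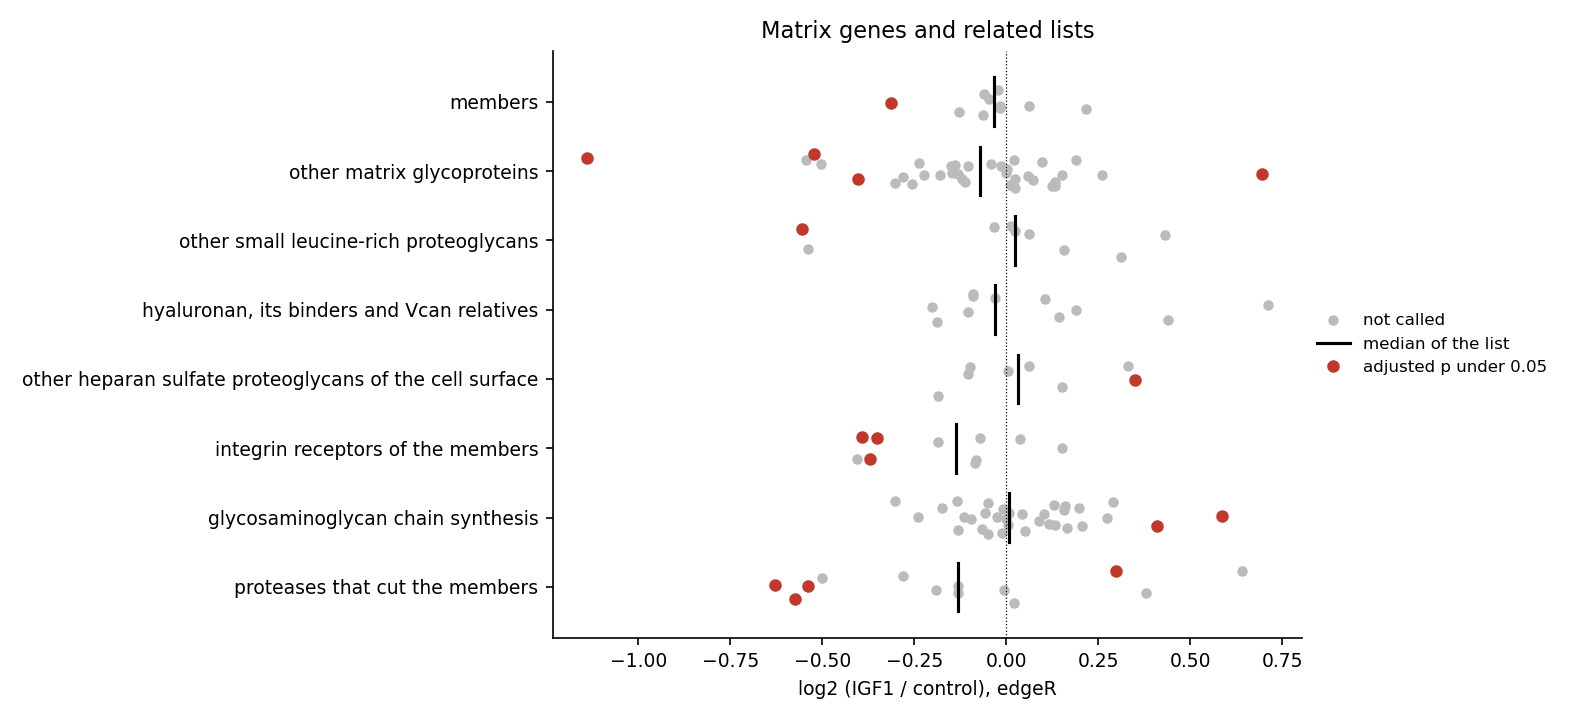
Fitted log2 fold change of each tested gene in the matrix gene list and 7 related lists, with called genes in red and a bar at the median of the list. Fbln1 at -0.31 is the red point among the members, and the point farthest left is Thbs1 at -1.14.

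Of 9 other small leucine-rich proteoglycans tested, 0 were called higher by edgeR, DESeq2 or limma-voom (0 at an unadjusted p under 0.05) and 1 was called lower. This was Omd, which encodes osteomodulin of mineralising matrix. It fell by 0.55 on the log2 scale, from 27.4 to 18.9 CPM (adjusted p = 0.0101), and lost its call without embryo 4 (adjusted p = 0.0527). Of 11 genes for hyaluronan, its binders and the relatives of Vcan, 0 were called by edgeR, DESeq2 or limma-voom, with 1 in each direction at an unadjusted p under 0.05. In edgeR, 1 was called lower without embryo 2, and 1 with all embryos when no filter beyond that of the deposited table was used. Cd44, the hyaluronan receptor, had a log2 fold change of 0.11 (adjusted p = 0.434) and Cemip2, a cell-surface hyaluronidase, had -0.20 (adjusted p = 0.0797).

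Of 8 other heparan sulfate proteoglycans of the cell surface, relatives of Sdc1 by function, 1 was called higher and 0 lower by edgeR, and likewise by DESeq2 and by limma-voom. At an unadjusted p under 0.05 edgeR had 2 higher and 1 lower. Gpc1, which encodes glypican 1, rose by 0.35 on the log2 scale, from 95.1 to 122 CPM (adjusted p = 0.0228). Its call was lost without embryo 1, 2 or 6 (adjusted p = 0.0828, 0.0725 and 0.0688). Of 33 genes of glycosaminoglycan chain synthesis, which build the chains of Vcan, Dcn, Bgn and Sdc1, 2 were called higher and 0 lower by edgeR, and likewise by DESeq2 and by limma-voom, while edgeR had 5 higher and 2 lower at an unadjusted p under 0.05. Papss1, which makes the sulfate donor, rose by 0.41 (adjusted p = 0.0122) and kept its call without any single embryo. Chst3, a chondroitin 6-sulfotransferase, rose by 0.59 (adjusted p = 0.0190) and lost its call without embryo 1, 2 or 6 (adjusted p = 0.0533, 0.0706 and 0.0507).

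The 10 integrin genes tested encode receptors for fibronectin, tenascin C and periostin. Of these, 0 were called higher by edgeR, DESeq2 or limma-voom, while edgeR and limma-voom called 3 lower and DESeq2 called 2. At an unadjusted p under 0.05 edgeR had 0 higher and 5 lower. Itgb3 fell by 0.39 (adjusted p = 0.0377), Itga8 by 0.37 (adjusted p = 0.0127) and Itga4 by 0.35 (adjusted p = 0.0222) on the log2 scale. The call of Itga8 was lost without embryo 6 (adjusted p = 0.0597). That of Itgb3 was lost without embryo 1, 3, 4 or 6 (adjusted p = 0.106, 0.0896, 0.0978 and 0.0680), and that of Itga4 without embryo 1, 2, 4 or 6 (adjusted p = 0.0572, 0.0682, 0.0987 and 0.0697).

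Of 13 proteases that cut the members, 1 was called higher and 3 lower. Tll1, a tolloid protease, fell by 0.63 (adjusted p = 0.00990), Adamts5, a versicanase, by 0.57 (adjusted p = 0.00736) and Plat, the tissue plasminogen activator, by 0.54 (adjusted p = 0.0168) on the log2 scale. Adamts4, a related aggrecanase and versicanase, rose by 0.30 (adjusted p = 0.0479). The calls of Tll1 and Adamts5 held without any single embryo. That of Plat was lost without embryo 6 (adjusted p = 0.0527), and that of Adamts4 without embryo 1, 2, 4 or 6 (adjusted p = 0.106, 0.108, 0.165 and 0.165). The transcript of Vcan, whose protein the Adamts5 and Adamts4 products cut, had the log2 fold change of -0.02 given above. Versican protein and its cutting were not measured.

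Lists of hypoxia targets and cell type markers were set beside the matrix genes, again against 6.72% of all genes called higher and 4.76% called lower. Of 15 tested hypoxia target genes, 14 were called higher, with a median log2 fold change of 1.69. Their sum had log2 ratios of 0.66, 2.35, 2.23, 0.90 and 0.94, highest in embryos 2 and 3. The genes named by size were Mgarp, Ankrd37, Bnip3 and Higd1a, with log2 fold changes of 3.88, 2.90, 2.20 and 2.15, and their calls held without any single embryo. Of the 13 mesenchymal markers, 2 were called lower by edgeR and 3 by DESeq2 and by limma-voom, and 0 were called higher by any of these. At an unadjusted p under 0.05 edgeR had 5 lower and 0 higher, and 11 of the 13 had a negative log2 fold change. Pdgfra, a growth factor receptor of mesenchyme, fell by 0.53 (adjusted p = 0.00183) and Vim, the intermediate filament vimentin, by 0.42 (adjusted p = 0.00949) on the log2 scale, and both calls held without any single embryo. Of 14 epithelial markers 0 were called lower by edgeR, DESeq2 or limma-voom (1 at an unadjusted p under 0.05) and 1 higher, Krt5, a basal keratin, by 0.43 (adjusted p = 0.0126, lost without embryo 6 at an adjusted p of 0.0646). Of these epithelial markers 1 was called lower without embryo 2 and 2 without embryo 3, and 2 were called higher without embryo 4. The epithelial sum ran from 1815 to 2651 CPM in control and from 2114 to 2753 CPM in IGF1 teeth.

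Of 7 endothelial markers 2 were called lower, Esam by 0.42 (adjusted p = 0.0406) and Cdh5 by 0.38 (adjusted p = 0.0188), and the sum of the list had a median of 426 CPM in control and 342 CPM in IGF1 teeth. The call of Cdh5 was lost without embryo 2 or 4 (adjusted p = 0.0537 and 0.0545) and that of Esam without any one embryo, with adjusted p from 0.0593 to 0.137. Of 5 tested red blood cell markers 4 were called lower: Hba-a1, Hbb-bt, Hbb-bs and Hba-a2. Reads may be split between the near-identical alpha globin genes Hba-a1 and Hba-a2, and between the beta globin genes Hbb-bs and Hbb-bt. Their log2 fold changes were -0.56, -0.52, -0.46 and -0.39, and the call of Hba-a2 was lost without embryo 3, 4 or 6 (adjusted p = 0.0787, 0.132 and 0.134). Of 6 macrophage markers Csf1r was called lower, by 0.44 (adjusted p = 0.0234), which was lost without embryo 3, 4 or 6 (adjusted p = 0.05, 0.102 and 0.0669). Of 3 cartilage markers Sox9 was called higher, by 0.43 (adjusted p = 0.0163, lost without embryo 6 at an adjusted p of 0.0698), while Col9a1, Cnmd and Ucma were at 0 in some libraries. Of 3 muscle markers tested, 0 were called by edgeR, DESeq2 or limma-voom and 0 had an unadjusted p under 0.05. The part of these cell types and of the hypoxia targets in the values of the matrix genes was not tested.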

How the data were processed

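Single molars were homogenised, and libraries were made with the Ovation Mouse RNAseq System. The submitters' processing notes name FastQC 0.11.8, Trimmomatic 0.39, Salmon 0.99.0, DESeq2 and the build GRCm38. The authors deposited estimated counts per gene without normalization. All values were whole, so rounding changed none. The transcript set, strand setting and filter are not given in the sources used here, and every gene had at least 10 counts over all libraries. Of the 18381 identifiers, 18276 were in GENCODE M21 and 105 were not. Salmon divides reads shared by paralogs or overlapping genes by estimation, so such counts are uncertain.

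After filterByExpr and TMM scaling, IGF1 and control were compared by edgeR's quasi-likelihood test with embryo as a block, and p-values were adjusted by Benjamini-Hochberg over 14504 genes. Genes were called at an adjusted p under 0.05. Embryo is a block since, per the labels, each embryo gave a tooth to both treatments. Deviations from the group means correlated at -0.0389 to 0.319 within the 5 pairs, each above the median of other pairs, -0.0463. Each library came from an embryo of its own within its group, per the labels, and a check for a library deposited again found none (chi-square per degree of freedom 4.68 to 19.4 between libraries of a group). The SE was the absolute log2 fold change over the square root of F, and intervals were 95%. Ratios within embryos used a prior count of 2. Levels per kb used merged exon length.

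The 10 members and the lists were chosen with earlier results of these data known. All members were named, and from each other list up to 4 called genes that moved one way in all 5 embryos, by size, or, where there were none, the 2 of highest mean CPM. A further marker list is not reported here. The steps were tested on simulated data. Alternatives were limma-voom, the Wald test and the size factors of DESeq2, library totals alone, other filters, no block, and leaving out each embryo. The paper given with the series does not describe this experiment and no value was taken from it. Software was Python 3.11.15, pandas 2.3.3, matplotlib 3.10.9, R 4.3.3, limma 3.58.1, edgeR 4.0.16 and DESeq2 1.42.0.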

Additional observations from a re-analysis of the deposited data

Results flagged for a closer look

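Each member was checked for a tooth or embryo that stood apart in its group of 5, by whether the gap to the nearest other value exceeded 0.71 of the whole range. Of 30 groups of values, 3 held such a sample, where chance alone gives about 1 in 20, or 1.5. Vcan was low in the IGF1 tooth of embryo 2, at 2420 CPM against 2840 to 3000 CPM in the other IGF1 teeth (gap over range 0.721). Bgn was high in the control tooth of embryo 1, at 428 CPM against 315 to 347 CPM in the other control teeth (0.719). The log2 ratio of Lum was low in embryo 2, at -0.20 against 0.27 to 0.43 in the other embryos (0.748).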

How the results depend on the processing

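Of 120 values of the members under the alternatives, 109 kept their direction and their side of the threshold, 7 turned direction, 1 passed the threshold and 3 lost it. Fbln1 kept its direction throughout. Without the embryo block, which discards the pairing of teeth, 887 genes were called in place of 1666, 0 members were called lower, and Fbln1 had a log2 fold change of -0.31 (adjusted p = 0.0650). The cause of the smaller count was not tested. Fits that left out an embryo had fewer samples and called 986 to 1602 genes, with 0 to 1 members higher and 0 to 1 lower. Their log2 fold changes ran from -0.37 to -0.26 for Fbln1, 0.16 to 0.32 for Lum, -0.079 to 0.017 for Sdc1, -0.086 to 0.071 for Vcan, -0.13 to 0.009 for Dcn, -0.14 to 0.083 for Fn1 and -0.074 to 0.07 for Tnc. They ran from 0.002 to 0.16 for Sparc, -0.13 to -0.005 for Postn and -0.16 to -0.075 for Bgn. Of the marker genes reported, Alpl (-0.31 to 0.088), Des (-0.21 to 0.46) and Actc1 (-0.45 to 0.48) turned direction when an embryo was left out. Actc1 was also 0.044 with limma-voom and 0.32 without the block, and none of these values was called. Of 30 called genes named from the other lists, 13 stayed called without any single embryo and 8 without the block, and 57 of 408 counts of calls in lists moved by more than 1.5 times. Without embryo 3 there were 2 calls of a higher level among other matrix glycoproteins, 2 among heparan sulfate proteoglycans and 4 among genes of chain synthesis. DESeq2's Wald test did not call Vwa1, Itgb3, Adamts4, Esam or Csf1r. The median log2 fold change of all genes moved at most to -0.02, with library totals alone. Low counts went with a wide interval for Kera, which had 7 to 46 counts in a library and a 95% interval from -0.60 to 1.46.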
